A study of Mus musculus with 64 samples.

Results

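The 34 genes described here carry cholesterol through its life in a cell, from synthesis through sensing and efflux to turnover. They were chosen by symbol, with earlier results of these data known. The symbols were matched to the Ensembl IDs of the deposited table, and 34 of 34 were found among its 18432 genes. By role they fell into 18 synthesis enzymes, 5 regulators of the sterol-sensing transcription factor SREBP, 5 genes of the oxysterol receptor LXR and its induced genes, and 6 genes of turnover, storage, transport and uptake. RNA was sequenced from the frontal cortex and the hippocampus of C57BL/6N mice at postnatal week (PWK) 1, 7, 14 and 28. Knock-in animals carried 1 Arg87Cys allele (Cyfip2 +/R87C, KI), and their littermates of wild-type genotype (WT) served as controls. Cyfip2 encodes a subunit of the WAVE complex, which drives actin assembly, and the substitution models a variant found in children with epileptic encephalopathy. The allele was carried in the germline and thus in every cell, the labels name no treatment, and both regions came from both hemispheres of each mouse. Each of the 16 groups of age, genotype and region held 4 libraries from 4 mice, 64 in all.

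Brain cholesterol is made within the brain, because lipoproteins of the blood do not cross the blood-brain barrier, and much of it ends in myelin and synaptic membranes. When sterols in the endoplasmic reticulum run low, the escort protein SCAP carries SREBP-2 to the Golgi for cleavage, and the released fragment switches on nearly every enzyme of the pathway; INSIG proteins hold SCAP back when sterols are high. Oxysterols made from surplus cholesterol activate LXR receptors, which induce the exporters ABCA1 and ABCG1, and neurons remove cholesterol by converting it to 24S-hydroxycholesterol with CYP46A1.

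The promoters of 5 members called between the genotypes are shown as examples: Hmgcs1, Nsdhl, Cyp51 and Insig1 were higher in KI mice and Tm7sf2 was lower. Other called members with a known promoter are not printed, among them Abca1, whose 250 bases held neither of the motifs marked below. Each line gives the 250 bases before the annotated start (RefSeq, GRCm38.p6), read 5′ to 3′ in the direction of the gene. Capitals mark CCAAT on either strand, which reads ATTGG when it lies on the opposite strand, and TCACNCCAC, the core of a sterol regulatory element, on either strand.
Hmgcs1 (chr13:119690101-119690350, plus strand): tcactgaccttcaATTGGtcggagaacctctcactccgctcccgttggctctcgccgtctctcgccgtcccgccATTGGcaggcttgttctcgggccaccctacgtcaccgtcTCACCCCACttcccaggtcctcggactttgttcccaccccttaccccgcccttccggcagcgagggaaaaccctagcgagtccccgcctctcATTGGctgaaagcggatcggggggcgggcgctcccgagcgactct
Nsdhl (chrX:72918271-72918520, plus strand): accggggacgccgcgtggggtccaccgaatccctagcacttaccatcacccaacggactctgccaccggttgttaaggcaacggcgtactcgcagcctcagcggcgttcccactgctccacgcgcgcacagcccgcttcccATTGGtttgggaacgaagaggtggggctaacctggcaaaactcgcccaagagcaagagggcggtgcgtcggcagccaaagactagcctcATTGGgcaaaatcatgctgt
Cyp51 (chr5:4104698-4104947, minus strand): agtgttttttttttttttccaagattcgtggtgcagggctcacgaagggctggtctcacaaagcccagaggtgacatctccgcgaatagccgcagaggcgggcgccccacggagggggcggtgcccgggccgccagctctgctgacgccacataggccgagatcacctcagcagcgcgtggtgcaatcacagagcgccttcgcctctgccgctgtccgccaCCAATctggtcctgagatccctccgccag
Insig1 (chr5:28071162-28071411, plus strand): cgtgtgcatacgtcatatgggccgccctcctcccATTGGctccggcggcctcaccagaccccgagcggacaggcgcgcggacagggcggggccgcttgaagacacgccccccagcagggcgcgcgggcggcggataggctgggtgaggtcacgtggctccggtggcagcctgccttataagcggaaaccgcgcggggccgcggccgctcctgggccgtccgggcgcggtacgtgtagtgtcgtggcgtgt
Tm7sf2 (chr19:6067851-6068100, minus strand): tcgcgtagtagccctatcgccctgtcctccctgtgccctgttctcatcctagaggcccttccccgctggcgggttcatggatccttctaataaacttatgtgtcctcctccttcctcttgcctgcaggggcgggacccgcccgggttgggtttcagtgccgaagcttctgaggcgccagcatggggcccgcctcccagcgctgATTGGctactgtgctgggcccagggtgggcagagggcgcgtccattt
In all, 28 of the 34 genes had an entry in the promoter table, among them 15 of the 18 synthesis enzymes; Npc1, Stard4, Sqle, Fdft1, Fdps and Abcg1 had none. Windows ran from 250 bases before to 50 bases after the start, and a gene counted if any of its windows held the motif on either strand. CCAAT stood in 14 of 15 synthesis promoters (93.3%), in 8 of 13 promoters of the other members (61.5%) and in 41.1% of all 27025 genes with a window. The motif GGGCGG, a GC box, was in 93.3% of the synthesis promoters, in 76.9% of the promoters of the other members and in 38.2% of all genes. The 27025 genes were not limited to those measured here. TCACNCCAC was found in 1 member, Hmgcs1, starting 137 bases before the start, and in 1.44% of all genes; it shared no base with a CCAAT there. Tm7sf2, whose level moved against the other enzymes, held 1 CCAAT in its window, and Cyp51 also held 1. These matches describe letters in a window and not bound sites.

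Values are normalized counts, that is, estimated counts per gene scaled by the authors over all libraries. Library totals lay between 29230000 and 32600000 after scaling, no 2 libraries held the same values (highest correlation 0.99), and no member was listed at 0 in any library. The lowest member value was 13.4, in Nr1h3. Cyfip2 itself, whose single-residue change leaves both alleles expressed so that its level is no test of the genotype, was at 25727 ± 3577 in KI and 34726 ± 608 in WT cortex at PWK 28 (SD, n = 4 each; log2 fold change -0.44, limma, adjusted p = 0.0058) and passed in none of the other genotype comparisons. Neuronal, astrocytic and oligodendrocyte markers were above 0 in every library, and the summed hippocampal markers (Prox1, Zbtb20, Wfs1, Lct, Dsp) were above those of the cortex at every age, with no overlap. A choroid plexus list, led by Ttr, ranged from a sum of 259 to 124504 between hippocampal libraries, varied widely within both genotypes, and had no marker called in a genotype comparison of the hippocampus. In bulk tissue, fewer cells of a type and less RNA per cell cannot be told apart, which holds for every result below.

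The study collected 4 ages, so the first comparison is the course of the genes in WT mice. Between PWK 1 and PWK 7 the synthesis enzymes fell together: 17 of 18 passed the test as lower in cortex and 18 of 18 in hippocampus, with medians of -1.15 and -1.13 on the log2 scale. Over all 34 members, 30 were called in cortex, where 65.5% of all genes tested were called, and 31 in hippocampus, where 62.2% were, so that a call in itself says little at this step. A member was called when limma gave an adjusted p under 0.05 (Benjamini-Hochberg, over all genes tested), and log2 fold changes are differences of mean log2(value + 1). The median change over all genes was 0.01 in both regions, and 32.3% (cortex) and 30.4% (hippocampus) of all genes were called lower.

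Hmgcs1, the enzyme that makes HMG-CoA at the entry of the mevalonate stage, had the largest fall. In WT cortex its 4 libraries read 29774, 32866, 33410.1 and 34402 at PWK 1 and 8496, 8431, 8625 and 9265 at PWK 7, with no overlap (log2 fold change -1.90). In WT hippocampus it went from 22101 ± 778 to 6391 ± 547 (SD, n = 4; log2 fold change -1.79). Sqle, the squalene epoxidase that commits the pathway to sterols, fell by a log2 of 1.68 in both regions. Fdps, which builds farnesyl diphosphate, changed by -1.53 and -1.26, and Dhcr7, which takes part in the last reduction steps, by -1.36 and -1.24, in cortex and hippocampus. The late enzymes Msmo1 (-0.28 and -0.38) and Sc5d (-0.24 and -0.17) moved least among the enzymes called in both regions. Ebp, a sterol isomerase, was at -0.18 in cortex and did not pass (adjusted p = 0.138); in hippocampus it was at -0.40, a call that held in 3 of 8 refits that each left out 1 library and was lost without WT replicate 1, 3 or 4 of PWK 1 or 1 or 3 of PWK 7 (adjusted p up to 0.172).

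Genes of sensing, export and turnover split between the directions. Cyp46a1, the neuronal 24-hydroxylase, rose from 2540.5 ± 111 to 5678 ± 200.3 in cortex and from 1814 ± 130.1 to 3616 ± 268 in hippocampus (log2 fold changes 1.16 and 0.99). The exporter Abcg1 rose by 1.28 and 1.44, the lysosomal cholesterol transporter Npc1 by 0.87 and 0.64, and Insig2, one of the 2 INSIG retention proteins, by 0.56 and 0.64. The SREBP genes were called in opposite directions: Srebf1, better known for fatty acid synthesis, rose by 0.82 and 0.78, while Srebf2, the main regulator of cholesterol synthesis, fell by a log2 of 0.38 and 0.44. Abca1, the other LXR-induced exporter, went down where Abcg1 went up (-0.77 and -0.77). Lrp8, a receptor for apolipoproteins and reelin, changed by -1.30 and -1.01.

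After PWK 7 few members passed the test. From PWK 7 to 14, 3 members were called in cortex (background 5.31%) and 2, both lower, in hippocampus (5.57%, and 2.51% lower), none of them synthesis enzymes. Insig1, the sterol-responsive INSIG gene, was lower at PWK 14 in both regions (-0.24 in cortex and -0.35 in hippocampus). The cortical call was lost without WT replicate 1 or 2 of PWK 14 or 2 or 4 of PWK 7 (adjusted p up to 0.0659), and the hippocampal call held in 8 of 8 such refits. The others were Srebf2 (0.14) and Abcg1 (0.26) in cortex, each called in 1 of 8 refits with adjusted p up to 0.137 and 0.136, and Lrp8 in hippocampus (-0.19), called in 4 of 8 with adjusted p up to 0.0999. Whichever library was left out, between 0 and 2 members were called in cortex and between 1 and 3 in hippocampus. From PWK 14 to 28, 6 members were called in cortex (15.3%) and 3, all lower, in hippocampus (11.6%, and 6.97% lower). Among them Cyp46a1 was lower in cortex at PWK 28 (-0.30, adjusted p = 0.000434), as was Sqle (-0.21, adjusted p = 0.00774). In a single fit of all 64 libraries the call of Sqle was lost (adjusted p = 0.199) and that of Cyp46a1 was not. Scap, the SREBP escort, was lower in cortex (-0.23, adjusted p = 0.00847) and Ebp was higher (0.42, adjusted p = 0.0111). In hippocampus Sqle (-0.22), Srebf1 (-0.20) and Scap (-0.27) were called lower, but each call held in 3 of 8 refits, with adjusted p up to 0.103, 0.0983 and 0.0799, and 0 to 4 members were called over these refits. The hippocampal calls of Srebf1 and Scap were lost without WT replicate 1 or 4 of PWK 14 or 1, 2 or 4 of PWK 28, and that of Sqle without 2 or 3 of PWK 14 or 1, 2 or 4 of PWK 28. The counts of members over the refits, at this step and from PWK 7 to 14, have no share of all genes beside them.

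**Figure D1:**
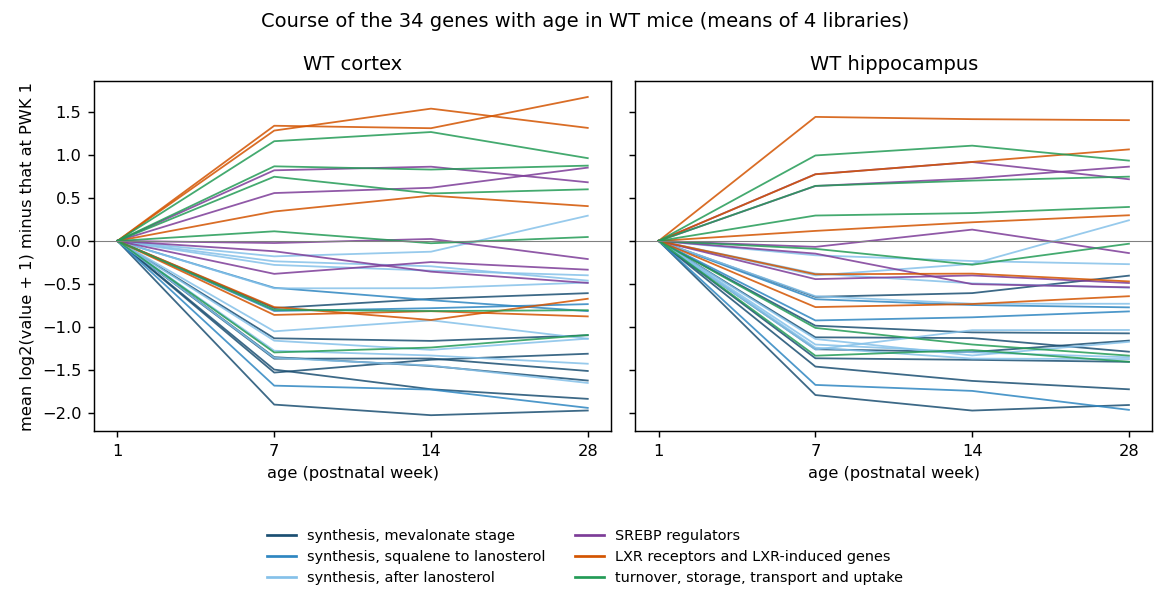
Course of the 34 genes in WT mice. Each line is 1 gene, coloured by role, and gives its mean log2(value + 1) over 4 libraries minus that at PWK 1, against age in postnatal weeks, with cortex on the left and hippocampus on the right. All 18 synthesis enzymes lie below 0 at PWK 7 in both regions, and most lines run nearly level afterwards; Ebp, which was called as rising from PWK 14 to 28 in cortex, is the enzyme that turns up at the end.

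The design also allows the regions of WT mice to be compared at each age. Libraries of both regions of a mouse were treated as independent in these tests. Synthesis enzymes were lower in hippocampus than in cortex at every age: 16, 13, 15 and 11 of 18 were called lower at PWK 1, 7, 14 and 28, and 1 was called higher, Dhcr7 at PWK 28. Of all genes, 18.6%, 20.4%, 17.6% and 19% were called lower at these ages, and 18.8% were called higher at PWK 28. The call of Dhcr7 (0.19) held in 2 of 8 refits and was lost without WT replicate 1 or 3 of cortex or any single hippocampal library (adjusted p up to 0.11). In all, 26, 23, 24 and 25 of 34 members were called at the 4 ages, where 34.7%, 40.8%, 34.6% and 37.8% of all genes were. Hmgcs1 was lower in hippocampus by a log2 of 0.56, 0.45, 0.51 and 0.50, and Fdft1, the squalene synthase, by 0.42, 0.53, 0.52 and 0.50. At PWK 14 the 4 cortical WT libraries of Fdft1 read 2666, 2661, 2575 and 2626 and the hippocampal ones 1724, 1917, 1856 and 1824, far apart.

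Stard4, a sterol carrier between membranes, showed a gap that was wider in adults, with log2 fold changes of -0.32, -0.86, -0.78 and -0.92 at the successive ages; the change of the gap itself was not tested. Cyp46a1 was lower in hippocampus at every age (-0.49, -0.65, -0.65 and -0.52). The regulators divided here too. Srebf2 and Insig1 were lower in hippocampus at all 4 ages, with Srebf2 between -0.36 and -0.20 and Insig1 between -0.44 and -0.30. Srebf1, Insig2 and Abca1 were higher there, with Srebf1 between 0.29 and 0.39, Insig2 between 0.26 and 0.37 and Abca1 between 0.34 and 0.53. At PWK 1 the call of Srebf1 was lost without WT replicate 4 of cortex or 1 or 2 of hippocampus, and that of Insig2 without 2 or 4 of cortex or 2 or 3 of hippocampus, with adjusted p up to 0.061 and 0.0685. In a single fit of all 64 libraries Abca1 did not pass at PWK 1, 7 or 28 (adjusted p = 0.11, 0.0969 and 0.0731), nor did Stard4 at PWK 1 (adjusted p = 0.0638).

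**Figure D2:**
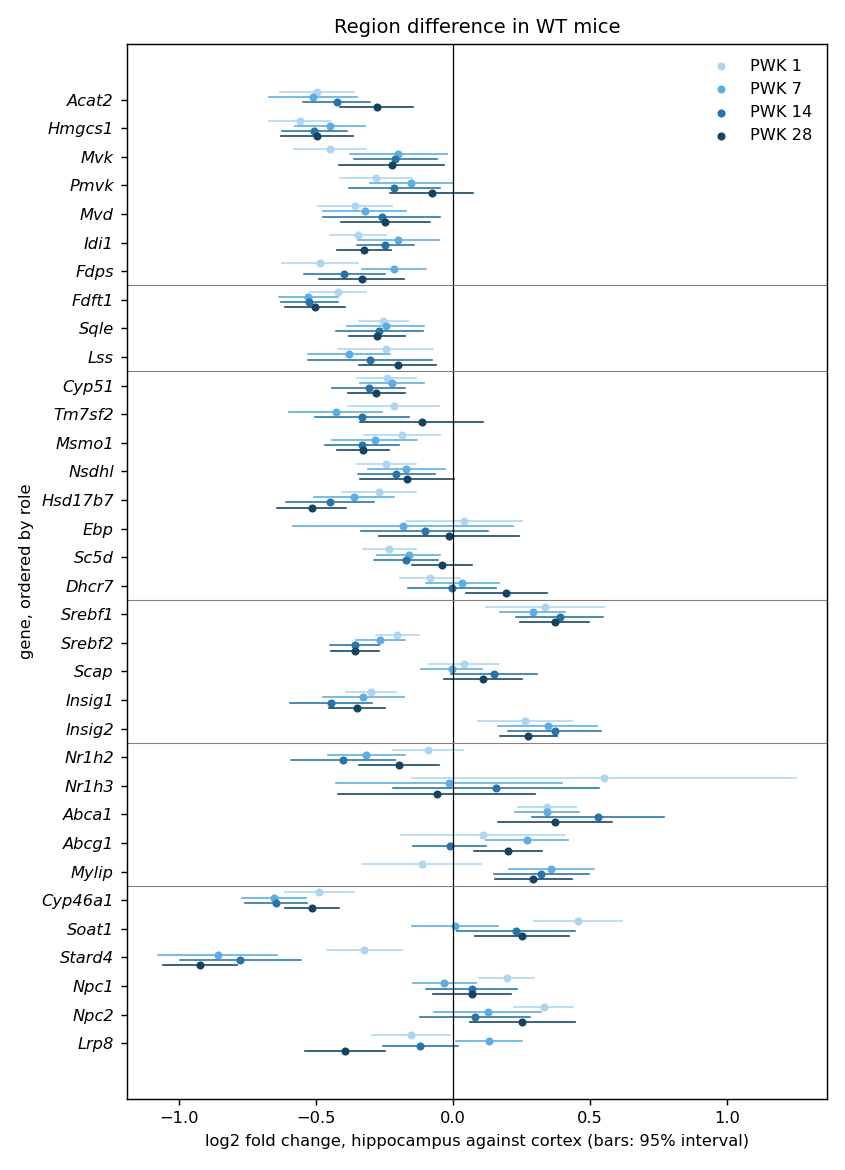
Difference between hippocampus and cortex of WT mice for each of the 34 genes. Points give the log2 fold change at PWK 1, 7, 14 and 28 (light to dark) and bars its 95% interval from limma with 4 libraries a group; values left of 0 are lower in hippocampus. Of the 18 synthesis enzymes 16 lie left of 0 at every age, all but Ebp and Dhcr7, Stard4 and Cyp46a1 lie farthest left at PWK 7 and 14, and Srebf1, Insig2 and Abca1 lie right of 0 at each age.

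Whether the R87C allele changes these genes, and at which age and in which region, was addressed by 8 comparisons of KI with WT. No member was called at PWK 1 or PWK 7 in either region, or in cortex at PWK 14. The hippocampus at PWK 14 had 17 of 34 called, 16 of them higher and 1 lower, where 15.6% of all genes tested were called (7.64% higher and 7.95% lower). In cortex at PWK 28, 7 of 34 were called, all higher, where 22.2% of all genes were called and 12.2% were called higher. In hippocampus at PWK 28, 5 of 34 were called, 4 higher and 1 lower, where 15.8% were (8.92% higher and 6.91% lower). The share of members called was thus above the background at PWK 14 in hippocampus and near it in both regions at PWK 28. Because the list was chosen with earlier results of these data known, these shares describe the list and do not test it. Of the members, 13 were called in none of the 8 comparisons, 13 in 1 and 8 in 2. All 7 members called in cortex at PWK 28 were among the 17 of hippocampus at PWK 14 (100% and 41.2% of each list), 1 member, Tm7sf2, was called in hippocampus at both PWK 14 and 28 (5.88% and 20%), and none was shared by the regions at PWK 28. No share of all genes called in both comparisons stands beside these overlaps, which describe the list only.

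**Figure D3:**
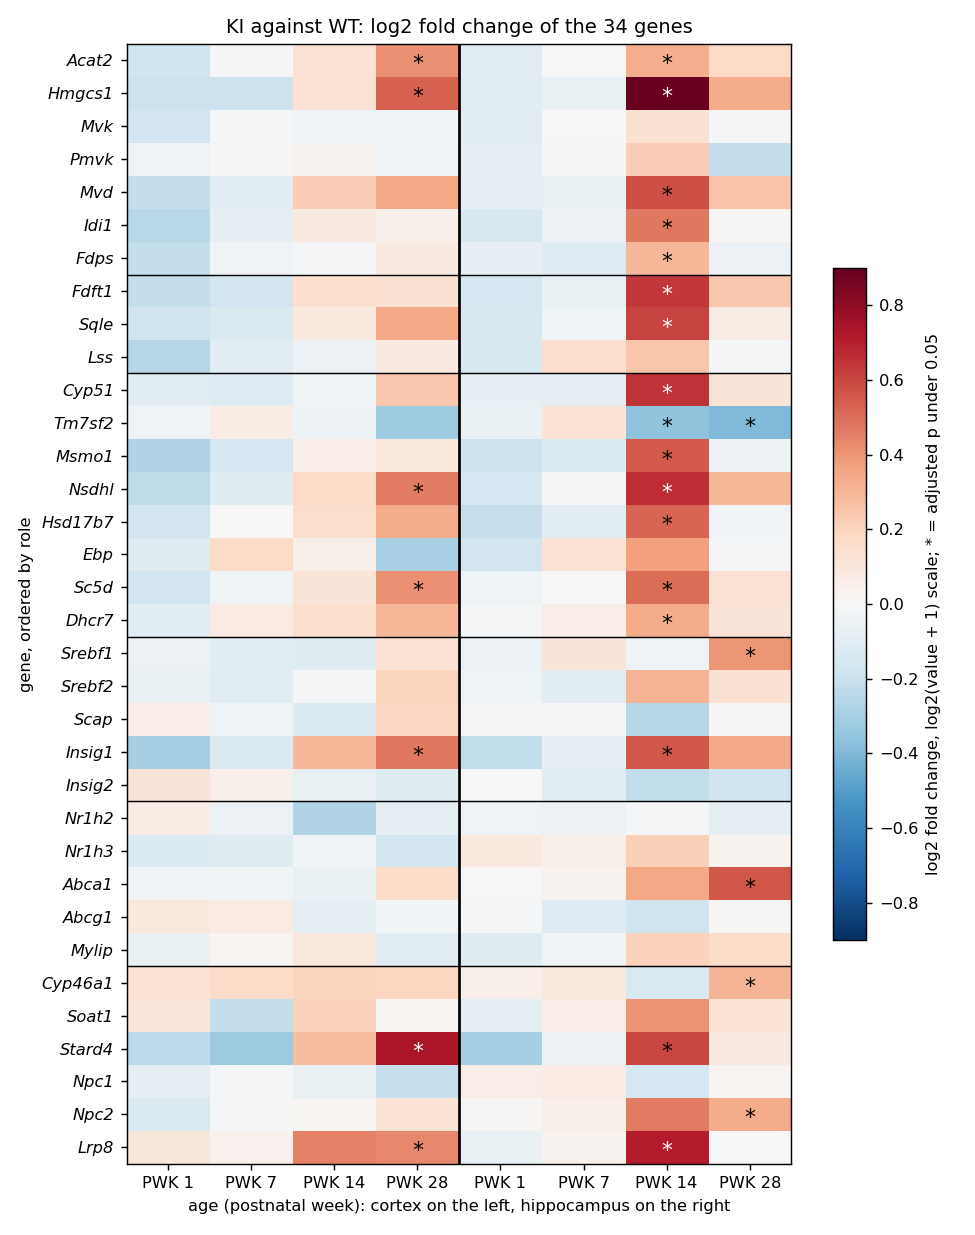
Log2 fold change of KI against WT on the log2(value + 1) scale for the 34 genes (rows, ordered by role, with lines between roles) at PWK 1, 7, 14 and 28 in cortex (left) and hippocampus (right). Red is higher and blue lower in KI mice, and an asterisk marks an adjusted p under 0.05 (limma, n = 4 against 4). The column of hippocampus at PWK 14 is red for 17 of the 18 synthesis enzymes, and the PWK 1 columns are blue for all 18.

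Of the 18 synthesis enzymes, 14 were called in hippocampus at PWK 14, 13 higher and 1 lower. The log2 fold change was positive in 17 of the 18, with a median log2 fold change of 0.49, against a median over all genes of 0.006. All stages of the pathway took part. In the mevalonate stage 5 of 7 enzymes were called higher, between squalene and lanosterol 2 of 3, and after lanosterol 6 of 8 were called higher and 1 lower. Over all 34 members, 18 had all 4 KI libraries above all 4 WT libraries, where 11.6% of all genes did, and 3 had them all below (12.2%).

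Hmgcs1 stood at 9652, 9648, 13105 and 9678 in the 4 KI libraries and at 5555, 5744, 5829.7 and 5372 in WT. The groups were far apart, and KI replicate 3 lay above the other 3, which were nearly equal. The log2 fold change was 0.89 (SE 0.10; 95% interval 0.67 to 1.11; adjusted p = 0.0011), a 1.85-fold difference. Idi1, the isomerase that makes the allylic building block, read 2052, 1698, 2185 and 1619 in KI and 1352, 1382, 1302 and 1344 in WT (log2 fold change 0.48, adjusted p = 0.0114). Acat2, the cytosolic thiolase that joins acetyl-CoA units, read 1113, 1025, 1103 and 1033 against 863, 882, 862 and 802 (0.33, adjusted p = 0.00961). Neither pair of groups overlapped, and Idi1 was highest in KI replicates 1 and 3. Mouse Acat2 has a close copy, Acat3, between which reads could be split. For Mvd, the decarboxylase of mevalonate diphosphate, the KI libraries read 509.8, 446, 599 and 441 and the WT libraries 297, 395, 311 and 326 (0.58, adjusted p = 0.0168). This call was lost without WT replicate 1 (adjusted p = 0.0565). Fdps was at 0.30 (adjusted p = 0.0354) and was called in 3 of 8 refits that left out 1 library; it was lost without KI replicate 1 or 3 or WT replicate 1, 3 or 4, with adjusted p up to 0.096. Mvk and Pmvk, the mevalonate kinases, were at 0.14 and 0.22 and did not pass (adjusted p = 0.35 and 0.205).

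Fdft1, which joins farnesyl units to squalene, read 2656, 2714, 3300.4 and 2736 in KI and 1724, 1917, 1856 and 1824 in WT libraries. The lowest KI library was thus well above the highest WT library (log2 fold change 0.63, SE 0.08, adjusted p = 0.00155). Sqle read 2321, 2189.9, 2704 and 1998 against 1429, 1613, 1646 and 1351, again apart (0.61, adjusted p = 0.0052). Lss, the cyclase that folds squalene epoxide to lanosterol, was at 0.25 and did not pass (adjusted p = 0.0929).

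After lanosterol, Nsdhl, a sterol dehydrogenase of C4 demethylation encoded on the X chromosome, read 996, 862, 874 and 803 in KI and 540.0, 604, 545 and 535 in WT (0.67, SE 0.08, adjusted p = 0.00171). Cyp51, the lanosterol 14-demethylase, read 2323, 1919, 2461 and 2033 against 1459, 1407, 1288 and 1395 (0.65, adjusted p = 0.00204). KI replicates 1 and 3 were the highest for Cyp51, and no group overlapped in either gene. Hsd17b7, the ketoreductase of the same C4 complex as Nsdhl, read 911, 889, 962 and 842 against 621, 646, 642 and 594 (0.52, adjusted p = 0.00197). Sc5d, the sterol C5-desaturase, read 3076, 3172, 3594 and 2808 against 2381, 2141, 2276 and 2109 (0.50, adjusted p = 0.00411). Msmo1, which oxidizes the C4 methyl groups, had the same direction (0.55, adjusted p = 0.00528). Dhcr7 was at 0.34 (adjusted p = 0.0295), a call held in 3 of 8 refits and lost without KI replicate 3 or any single WT library (adjusted p up to 0.0775). Ebp, at 0.37, did not pass (adjusted p = 0.144).

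Tm7sf2, one of 2 reductases that act on the C14 double bond left by Cyp51, went the other way. Its KI libraries read 363, 386, 324 and 367 and its WT libraries 414, 506, 459 and 469, with all KI below all WT (-0.36, adjusted p = 0.0326). The call held in 3 of 8 refits and was lost without KI replicate 3 or 4 or WT replicate 2, 3 or 4, with adjusted p up to 0.0972. The gene overlaps Vps51 on the same strand, so reads of the shared bases cannot be assigned with certainty.

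Among the 5 SREBP regulators 1 was called in hippocampus at PWK 14. Insig1, itself a target of SREBP, read 2118, 2107, 2134 and 1935 in KI and 1365, 1468, 1487 and 1310.4 in WT (0.56, SE 0.06, adjusted p = 0.00115). Srebf2 was at 0.31 with KI libraries of 5936, 7236, 8856 and 6721 against 5669, 5775, 5539 and 5902 and did not pass (adjusted p = 0.0749). All 4 KI libraries of Srebf2 were above the WT libraries, but they were spread widely. Srebf1, Scap and Insig2 were at -0.03, -0.26 and -0.22 (adjusted p = 0.857, 0.0754 and 0.0535).

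In hippocampus at PWK 14, 5780 of 18405 genes had an unadjusted p under 0.05 in limma, and so did 1 LXR gene, Abcg1. None of the 5 LXR genes was called at this age and region, with log2 fold changes between -0.18 and 0.35. Abca1, their best known target, read 5052, 1564, 1747 and 2334 in KI and 2124, 1673, 2029 and 1700.2 in WT, where a single KI library, replicate 1, stood far above the rest. Among the genes of transport and uptake, Lrp8 read 4772, 5223, 5218 and 3988 against 3016, 2763, 2939 and 2972, with no overlap (0.71, adjusted p = 0.00161). Stard4 read 981, 834, 1149.9 and 847 against 627, 638, 753 and 503 (0.60, adjusted p = 0.0203); this call was lost without WT replicate 1, 2 or 4 (adjusted p = 0.0574, 0.0544 and 0.0519). Soat1, which esterifies cholesterol for storage, and Npc2, the soluble partner of NPC1, were at 0.40 and 0.47 without passing (adjusted p = 0.0528 and 0.0697). Cyp46a1 read 2459.8, 4120.2, 3774 and 4175 in KI, with replicate 1 far below, and 3859, 4075, 3705 and 3992 in WT.

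Markers of cell types differed as well. The summed reactive astrocyte markers (Gfap, Vim, Serpina3n, Cd44, Lcn2) lay between 48574 and 199142 in KI and between 10046 and 12058 in WT hippocampus at PWK 14, and 3 of 5 were called higher. Gfap, the astrocytic intermediate filament, was at 131431, 40059, 45879.7 and 47169 in KI, with replicate 1 the highest. The summed general astrocyte markers were 164354 to 180607 against 129482 to 155337, and 1 of 6 was called. The oligodendrocyte markers overlapped between the genotypes (97337 to 162833 against 130292 to 161673; 1 of 7 called), as did the neuronal markers (206281 to 292431 against 278117 to 328404; 2 of 7 called). None of these markers was at 0 in the hippocampus, and their part in the result was not tested. Of 5 cortical identity markers 3 were called lower in KI hippocampus, with sums of 2751 to 3992 in KI and 4194 to 5664 in WT, without overlap. Of 5 hippocampal identity markers 2 were called lower, with overlapping sums (24107 to 28195 against 21620 to 26859.5). The part of these identity markers was not tested either. Without KI replicate 1, 18 members were called, and over the 8 refits that each left out 1 library the number ran from 13 (without WT replicate 1 or 4) to 20 (without KI replicate 2). The share of all genes called in each refit is not given beside these counts.

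**Figure D4:**
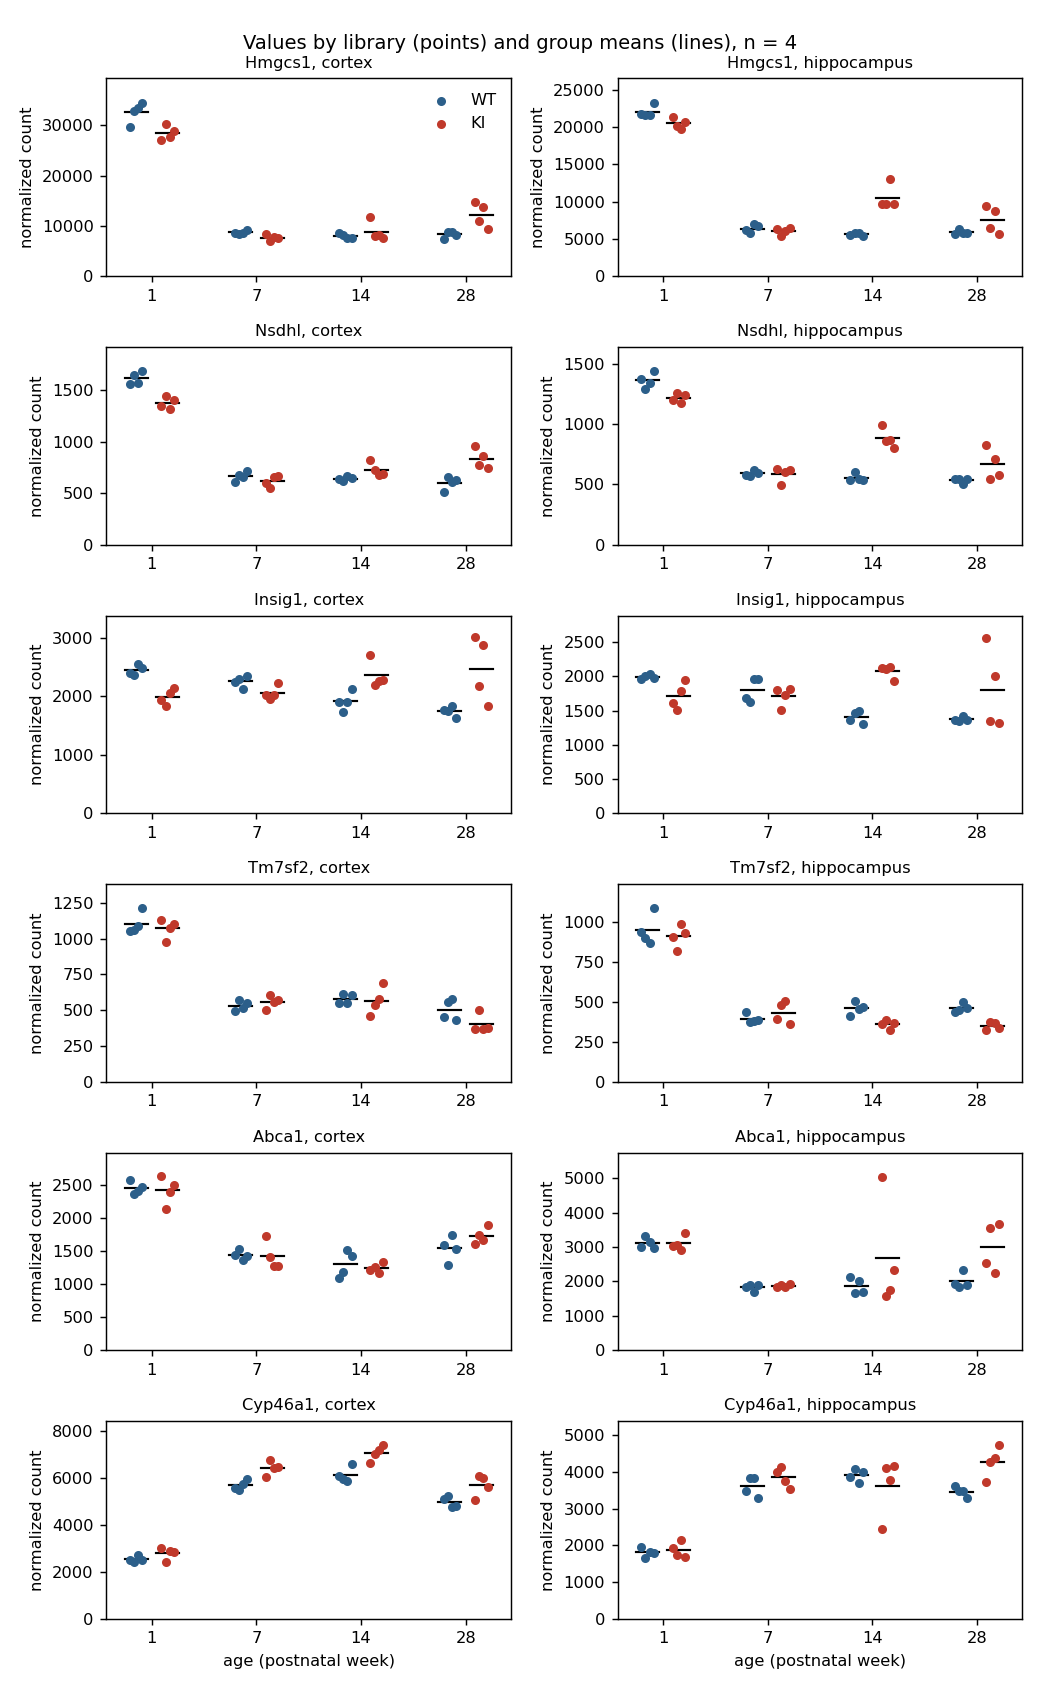
Normalized counts of Hmgcs1, Nsdhl, Insig1, Tm7sf2, Abca1 and Cyp46a1 in each library (points; WT blue, KI red) with group means (lines, n = 4) against age in postnatal weeks, in cortex (left) and hippocampus (right); vertical axes start at 0. In hippocampus at PWK 14 all KI points of Hmgcs1, Nsdhl and Insig1 lie above and all of Tm7sf2 below the WT points, and at PWK 28 the KI points of Insig1 and Abca1 split into a higher and a lower pair.

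Whether the genotype difference at PWK 14 was unlike in the 2 regions was tested directly as an interaction. Both regions were dissected from each mouse, and this fit treated their libraries as independent. In all, 5 members were called, all synthesis enzymes and all with the larger KI difference in hippocampus, where 2.85% of all genes were called and 1.64% in that direction. Cyp51 differed by 0.69 (adjusted p = 0.00588) and Fdft1 by 0.48 (adjusted p = 0.0133), and both calls held in 16 of 16 refits that each left out 1 library. Cyp51 in cortex read 1881, 1619, 1656 and 1546 in KI and 1859, 1744, 1609.7 and 1661 in WT, which overlapped. Hmgcs1 differed by 0.76 (adjusted p = 0.0259), Nsdhl by 0.49 (adjusted p = 0.0293) and Sqle by 0.52 (adjusted p = 0.0369). These 3 calls held in 9, 8 and 7 of the 16 refits. Each was lost without KI replicate 2, 3 or 4 or WT replicate 1 of cortex or WT replicate 1 or 4 of hippocampus. Hmgcs1 was also lost without cortical WT replicate 2, Nsdhl without cortical WT replicate 3 or 4, and Sqle without cortical WT replicate 2 or 3 or hippocampal KI replicate 3, with adjusted p up to 0.0617, 0.067 and 0.0819. The number called ranged from 2 to 9 over the refits, a count without the share of all genes called in each refit. At PWK 28 the same test called no member, where 4.57% of all genes were called. An unadjusted p under 0.05 in limma was reached by 4 members and by 3430 of 18413 genes. The change of the KI difference from PWK 14 to PWK 28 was tested too. It called no member in either region and no gene of the table (0%), while 6 members in cortex and 16 in hippocampus had an unadjusted p under 0.05 in limma; over all genes 2770 of 18398 and 2274 of 18411 did. In hippocampus the change was negative in all 18 synthesis enzymes (median -0.38), among them Tm7sf2, which was lower in KI at both ages (-0.36 at PWK 14 and -0.40 at PWK 28). It is a change of group means. By the mean over the enzymes, the KI libraries at PWK 28 split to both sides of WT, as given by library below. A single fit of all 64 libraries called 10 members for this change in hippocampus. The 0% above belongs to the main fit, so this count has no share of all genes beside it.

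In cortex at PWK 28, 4 of 18 synthesis enzymes were called higher, with a median of 0.19 over the 18 (0.11 without KI replicate 1). All 4 KI libraries lay above all WT libraries in 8 of the 34 members, where they did in 14.1% of all genes. Sc5d, which inserts the C5 double bond, read 3374, 2614, 3112 and 2829 in KI and 2271, 2118, 2256 and 2286 in WT (0.41, adjusted p = 0.00484). Acat2 read 1468, 1205, 1499 and 1271 against 1002, 1131, 1005 and 938 (0.41, adjusted p = 0.00897). Nsdhl read 956, 776, 865 and 743 against 516, 656, 608 and 629.5 (0.47, adjusted p = 0.01). In these 3 enzymes the genotypes did not overlap, and every call held whichever library was left out. Hmgcs1 read 14822, 10960.0, 13678 and 9282 against 7373, 8773, 8839 and 8270.0 (0.53, adjusted p = 0.0163), a call just lost without WT replicate 1 (adjusted p = 0.0509). KI replicates 1 and 3 were the highest in Hmgcs1, Acat2, Nsdhl and Sc5d alike.

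Stard4 showed the largest cortical difference of the members at PWK 28, at 2591, 1302, 2051 and 1498 in KI and 1013, 1055, 1184 and 1065 in WT (0.74, 95% interval 0.34 to 1.13, adjusted p = 0.0158). Insig1 read 3011, 2177, 2885 and 1842 against 1774, 1749.9, 1834 and 1637 (0.48, adjusted p = 0.0319). Its lowest KI library barely cleared the highest WT library, and the call held in 2 of 8 refits; it was lost without KI replicate 1 or 3 or any single WT library (adjusted p up to 0.0866). Lrp8 read 6056, 3920.3, 4361 and 4857 against 3198, 3275, 3625 and 4000.3, which overlapped (0.43, adjusted p = 0.0299), and was lost without KI replicate 4 or WT replicate 1, 2 or 3 (adjusted p up to 0.0845). Over the refits between 4 members (without WT replicate 1) and 11 (without KI replicate 2 or 4) were called, and 15 in a single fit of all 64 libraries. These counts have no share of all genes beside them. The summed reactive astrocyte markers were 8055 to 18057 in KI and 4011 to 5812 in WT cortex at PWK 28 (3 of 5 called higher). Of 6 general astrocyte markers 3 were called lower, while their sums overlapped (132129 to 143573 against 126533 to 149744). Of 7 neuronal markers 2 were called higher and 1 lower, with overlapping sums (295192 to 309165 against 294750 to 313419). The oligodendrocyte markers overlapped with none of 7 called, and 3 of 5 hippocampal and 2 of 5 cortical identity markers were called, in both directions. The part of these markers was not tested.

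At the same age in hippocampus, 1 of the 18 synthesis enzymes was called, and the others called were a regulator, an exporter and genes of turnover and transport. KI libraries were all above WT in 5 members, where 11.8% of all genes showed this. Tm7sf2 was the enzyme, at 325, 373, 367 and 339.8 in KI and 436, 452, 501 and 459.9 in WT, with all KI below all WT (-0.40, adjusted p = 0.0074). Srebf1 read 1996, 1834, 1853 and 2016 against 1450.1, 1338, 1602 and 1465, with all KI above all WT (0.40, adjusted p = 0.00199). Cyp46a1 read 3732, 4283, 4389.8 and 4742 against 3614, 3481, 3478 and 3282, likewise apart (0.30, adjusted p = 0.0117). These 3 calls, of a reductase, a lipogenic regulator and the enzyme of neuronal cholesterol removal, held whichever library was left out. Npc2, which hands cholesterol to NPC1 in the lysosome, read 2087, 1793, 1827 and 1923 against 1429, 1297, 1744 and 1596, without overlap (0.34, adjusted p = 0.0243) and was lost without KI replicate 1 or WT replicate 1 or 2 (adjusted p up to 0.0739). The summed reactive astrocyte markers were 39022 to 53242 in KI and 11778 to 12646 in WT, with 4 of 5 called higher, 4 of 6 microglial markers were called higher (11673 to 13148 against 9580 to 10489). The general astrocyte markers summed to 158686 to 187070 against 131125 to 140746, without overlap (2 of 6 called higher). Of 7 neuronal markers 3 were called higher and 1 lower, with overlapping sums (250273 to 280113 against 253598 to 271453), and 2 of 7 oligodendrocyte markers were called higher (142397 to 191544 against 129977 to 157265). The part of these markers was not tested.

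Abca1 read 2528, 3563, 2249 and 3678 in KI and 1929.9, 1845, 2332 and 1899.5 in WT hippocampus at PWK 28 (0.56, adjusted p = 0.0252). The groups overlapped at KI replicate 3, and the call held in 3 of 8 refits; it was lost without KI replicate 2 or 4 or WT replicate 1, 2 or 4 (adjusted p up to 0.0682). The libraries high for Abca1 were those low for synthesis. Insig1 in the same KI libraries read 2564, 1341, 2003 and 1319, against 1364, 1344, 1414 and 1357 in WT, and Sqle read 1801, 1048, 1733 and 1014 against 1282, 1305, 1338 and 1241. In both genes replicates 1 and 3 were above all WT libraries and replicates 2 and 4 below them, for Insig1 by a small margin in replicate 2.

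A score of synthesis, the mean over the 18 enzymes of log2(value + 1) minus the WT mean of the same age and region, shows this split by library. The 4 KI libraries of hippocampus at PWK 28 were at 0.35, -0.19, 0.25 and -0.20, and the WT libraries between -0.03 and 0.05. In cortex at PWK 28 the KI libraries of the same numbers were at 0.34, 0.08, 0.31 and -0.03. Replicates 1 and 3 were thus high in both regions. Both regions were dissected from each mouse, but the labels do not say that a number marks 1 mouse. Over all well-expressed genes, same-numbered KI libraries of the regions at PWK 28 deviated together from their group means in 4 of 4 pairs (correlation 0.403, 0.239, 0.243 and 0.443). At PWK 14 all 4 hippocampal KI libraries were above WT, at 0.50, 0.32, 0.55 and 0.33 against -0.06 to 0.08 in WT.

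**Figure D5:**
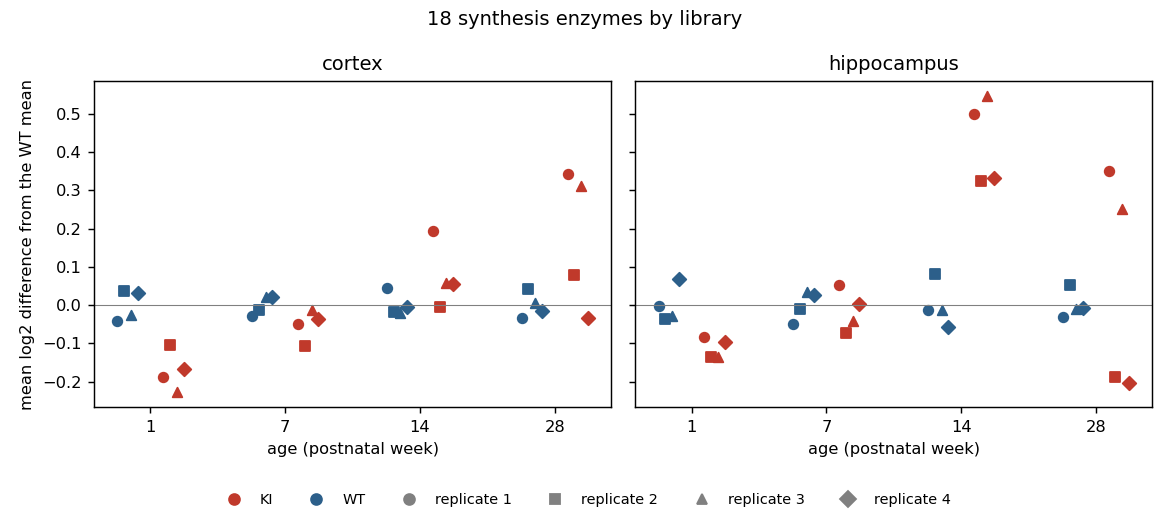
Synthesis score of each of the 64 libraries, the mean log2 difference of the 18 synthesis enzymes from the WT mean of that age and region, against age in postnatal weeks, in cortex (left) and hippocampus (right). Colour gives the genotype and shape the replicate number. KI points lie between -0.23 and -0.08 at PWK 1, between 0.32 and 0.55 in hippocampus at PWK 14, and on both sides of 0 in hippocampus at PWK 28, where circles and triangles (replicates 1 and 3) are high.

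At PWK 1 the synthesis enzymes leaned the other way without passing the test. All 18 had negative log2 fold changes in both regions, with medians of -0.18 in cortex and -0.10 in hippocampus, against medians near 0 over all genes. No member was called in cortex (background 0.00546%) or hippocampus (0.0109%), while 16 and 9 of the 34 had an unadjusted p under 0.05 in limma, as had 965 of 18311 and 1003 of 18361 genes. The sizes were small. Nsdhl in cortex read 1343, 1444, 1321 and 1404 in KI and 1564, 1651, 1567 and 1686 in WT (-0.23, adjusted p = 0.908). Insig1 read 1945, 1831, 2066 and 2142 against 2411, 2359, 2549 and 2493, also without overlap (-0.30, adjusted p = 0.825). In hippocampus Fdft1 read 3183, 3072, 2906 and 2965 against 3350.0, 3278, 3353 and 3575 (-0.16, adjusted p = 0.808). In all, 8 members in cortex and 9 in hippocampus had every KI library below every WT library, where 1.6% and 1.42% of all genes did, and none had every KI library above (1.55% and 1.84% of all genes).

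At PWK 7 no member was called in cortex (background 0.00545%) or hippocampus (0.0218%), and all 34 log2 fold changes lay between -0.33 and 0.17. In limma 10 members in cortex and 1 in hippocampus had an unadjusted p under 0.05. Over all genes 1477 of 18358 and 1144 of 18390 did. In cortex at PWK 14 no member was called either, where 5.18% of all genes were. An unadjusted p under 0.05 in limma was found for 7 members and for 3786 of 18367 genes. There 5 members, namely Fdft1, Nsdhl, Insig1, Cyp46a1 and Stard4, had all KI above all WT (6.64% of all genes). Insig1 stood at 2708, 2188, 2266 and 2291 against 1913, 1726, 1911 and 2124 (0.30, adjusted p = 0.0613), and Stard4 (0.27, adjusted p = 0.0578).

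Beyond the genotype means, the synthesis enzymes moved together from library to library. After each library's value was expressed as its deviation from its group mean, the 153 pairs of enzymes had a median Pearson correlation of 0.53 (Spearman correlation 0.39) over the 64 libraries. Pairs of an enzyme with an SREBP regulator had a median of 0.05, with an LXR gene -0.07 and with a gene of turnover, storage, transport or uptake 0.05. This describes libraries that share a normalization and groups of unequal spread, and has no test. Single genes broke the pattern of their role. By Pearson correlation Insig1 (0.82), Stard4 (0.77) and Srebf2 (0.63) followed the mean of the enzymes, while the enzymes Tm7sf2 (-0.29) and Ebp (0.10) did not. Fdft1 was at 0.83 and Nsdhl at 0.77. Spearman correlations were 0.565 for Insig1, 0.697 for Stard4 and 0.494 for Srebf2, with Fdft1 at 0.682 and Nsdhl at 0.739. Npc1 (-0.41), Cyp46a1 (-0.34) and Abca1 (-0.29) had the most negative Pearson values among the others.

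Of 39 further cholesterol genes listed for comparison, 38 were in the table. None was called at PWK 1 or 7. An unadjusted p under 0.05 in limma was found there for 3 and 4 in cortex and 0 and 3 in hippocampus. Over all genes 965 of 18311 and 1477 of 18358 in cortex and 1003 of 18361 and 1144 of 18390 in hippocampus had one. In cortex 1 was called at PWK 14 and 9 at PWK 28 (7 higher and 2 lower). The hippocampus had 5 at PWK 14 (3 higher and 2 lower) and 3 at PWK 28 (2 higher and 1 lower). Against the 5.18%, 22.2%, 15.6% and 15.8% of all genes called in these comparisons, the counts were near or below the background, and the genes named next describe single members of the list. Cyb5r3, a reductase that feeds electrons to sterol desaturation and demethylation, was called higher in 4 of the 8 comparisons, with log2 fold changes at PWK 14 and 28 of 0.36 and 0.75 in cortical tissue and 0.79 and 0.51 in hippocampal tissue. At PWK 14 its hippocampal libraries read 4063, 2469.8, 2624 and 2414 in KI and 1624, 1665, 1594 and 1640.2 in WT. Scarb1, a receptor for high-density lipoprotein, was called higher in hippocampus at PWK 14 (0.54, adjusted p = 0.0241) and in cortex at PWK 28 (0.54, adjusted p = 0.00201). Rnf139, a ubiquitin ligase of the sterol response, was called higher at PWK 14 in hippocampus (0.24, adjusted p = 0.0492). Of the LXR and efflux genes, 2 were called lower there, Abcg4, a relative of Abcg1 (-0.45, adjusted p = 0.0167) and Rxra, the partner of the LXR receptors (-0.35, adjusted p = 0.0227). Gramd1b, a carrier of cholesterol from the plasma membrane to the endoplasmic reticulum, was called lower at PWK 28 in cortex (-0.26) and hippocampus (-0.23), and Abca3, a lipid transporter, was called higher (0.36 and 0.15). Lcat, which esterifies cholesterol on lipoproteins, was the other gene called lower in cortex at PWK 28 (-0.35, adjusted p = 0.0486).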

How the data were processed

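RNA of frontal cortex and hippocampus from 64 samples was made into stranded libraries and sequenced as paired ends. Per the submitters' processing notes, the authors quantified transcripts with Salmon (0.11.2) against GRCm38 and worked in R (3.6.0) with DESeq2 (1.19.11); they summed estimates to genes and deposited normalized counts, a signal scaled by 1 size factor per library. The notes and the paper name different tool versions, and the labels and the paper different library kits. Raw counts were not recoverable from the values, so no count model was used, counting depth is unknown and library totals are totals after scaling. At the best of several trial read sizes for each library, 24.0 to 52.1% of low values lay within 0.1 of a whole read. Chance gives 20% for 1 fixed read size and more for the best of several.

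Gene symbols were matched by Ensembl ID. Genes with a mean of at least 1 over the libraries of a comparison were tested on log2(value + 1) with limma (3.58.1; empirical Bayes with a trend on the mean) in R (4.3.3), 4 libraries against 4, with Benjamini-Hochberg adjustment over all genes tested; a call is an adjusted p under 0.05. Ages were compared in 1 fit of the 16 WT libraries of a region, and interactions in the 16 libraries involved. A replicate is 1 mouse. Replicate numbers are not said to mark the same mouse across regions. The members and the other gene lists were chosen with earlier results of these data known, and genes were named by role and smallest p among those called. The alternatives were leaving out each library, quality weights, a mean of at least 100, no filter, a pseudocount of 5, total-sum scaling, 1 fit of all 64 libraries and a replicate block. Scripts were tested on simulated data. Promoter windows (250 bases before to 50 after the start) came from RefSeq.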

Additional observations from a re-analysis of the deposited data

Results flagged for a closer look

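In 4 of the 58 groups examined, 1 library of 4 stood apart from the other 3 by more than Dixon's 95% limit, which chance alone gives in about 1 group in 20. All 4 groups were in hippocampus at PWK 14. The groups examined were the KI and WT groups of the calls between genotypes. Of these calls 17 were in hippocampus at PWK 14, 7 in cortex at PWK 28 and 5 in hippocampus at PWK 28. Among KI libraries, replicate 3 of Hmgcs1 was at 13105 where the others were at 9648 to 9678, replicate 3 of Fdft1 was at 3300.4 where the others were at 2656 to 2736, and replicate 4 of Insig1 was the lowest, at 1935 against 2107 to 2134. Among WT libraries, replicate 2 of Nsdhl was at 604 against 535 to 545.0. In each of these genes the genotypes did not overlap with the library in place.

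The KI difference was larger in hippocampus than in cortex at PWK 14 for 5 members by a test of that difference (limma interaction), by a log2 of 0.76 for Hmgcs1, 0.48 for Fdft1, 0.52 for Sqle, 0.69 for Cyp51 and 0.49 for Nsdhl.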

How the results depend on the processing

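For members called in a comparison, none changed direction under any alternative tried, and over these members and alternatives 2797 values kept their side of the threshold and 271 lost it. In 1 fit of all 64 libraries, which pools the spread, the number of members called went to 2 in cortex at PWK 14, 15 in cortex at PWK 28 and 10 in hippocampus at PWK 28, to 9 for the region difference at PWK 14 and 1 at PWK 28, to 10 for the age difference in hippocampus, and in WT to 0 from PWK 7 to 14 in either region and 3 from PWK 14 to 28 in cortex. With quality weights it was 3 in cortex at PWK 14, 12 in cortex at PWK 28, 9 for the region difference at PWK 14, 2 for the age difference in cortex and 5 in WT hippocampus from PWK 14 to 28. With a mean of at least 100 it was 1 in cortex at PWK 14, and 4 and 6 in WT hippocampus from PWK 7 to 14 and from 14 to 28. With total-sum scaling it was 3 in cortex at PWK 14 and 1 in WT cortex from PWK 7 to 14. The causes of these differences were not tested, and the counts stand without the share of all genes called under each setting.

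Leaving out 1 library gave 13 to 20 members in hippocampus and 0 to 2 in cortex at PWK 14, 4 to 11 in cortex and 3 to 5 in hippocampus at PWK 28, 0 at PWK 1 and 7, 2 to 9 for the region difference at PWK 14 and 0 to 1 for the age difference in hippocampus. In WT it gave 30 in cortex and 29 to 31 in hippocampus from PWK 1 to 7, 0 to 2 and 1 to 3 from PWK 7 to 14, 5 to 7 and 0 to 4 from PWK 14 to 28, and 22 to 26, 21 to 24, 19 to 24 and 21 to 24 between the regions. The fit of all 64 libraries gave 19, 18, 20 and 19 between the regions, and none of these counts has its own share of all genes beside it.

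The replicate numbers did not pair KI with WT libraries: same-numbered libraries deviated together (correlation above 0.1) in 10 of 32 pairs, and between regions in 17 of 32, with all 4 pairs in WT at PWK 1 (0.102 to 0.256) and in KI at PWK 28 (0.239 to 0.443) and not in the other 6 groups. With the replicate number as a block, 14 members were called in hippocampus at PWK 14, where Mvd (adjusted p = 0.053), Fdps (0.0684), Tm7sf2 (0.0685) and Dhcr7 (0.0891) were lost and 1 other member was called; the counts in the other comparisons of genotypes were as without it, and the region difference at PWK 14 had 8 members. The 14 and 8 members called with the block stand without the share of all genes called in those fits. Total-sum scaling moved the median of all genes by less than 0.1 on the log2 scale. Groups of 4 limit what is detectable.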
